A study of Homo sapiens with 6 samples.

Results

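The genes described here encode factors with a part in the growth of blood and lymph vessels, most of them secreted, and a pair of co-receptors. They are VEGFA, VEGFB, VEGFC and PGF of the VEGF ligand family, the secreted factors ANGPTL4 and ADM, the neuropilins NRP1 and NRP2, and the ephrin EFNA1. They were taken by name, with no threshold on a measured value, although earlier results of these data were known. All 9 had a row among the 40295 identifiers of the table, and all 9 were among the 16580 genes with enough counts to be tested. HDQ-P1 is an established human breast cancer cell line. Y-320, a small molecule, was studied as an enhancer of readthrough, in which a ribosome reads past a premature stop codon. RNA-seq was carried out on 3 libraries of untreated cells and on 3 libraries of cells kept for 48 h with Y-320 at 1 μM, all grown in the same medium. No source says whether the untreated cells were given a solvent. Each group is 1 cell line, and nothing says whether its 3 libraries came from separate cultures, so the p-values below measure the spread between these libraries, which may be technical.

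VEGF ligands bind receptor tyrosine kinases on endothelial cells. VEGFA acts mainly through the receptor encoded by KDR, VEGFB and placental growth factor (PGF) bind the product of FLT1, and VEGFC binds that of FLT4 and drives lymphatic growth. Neuropilins are co-receptors that bind some VEGF forms and also the class 3 semaphorins, guidance cues that can oppose vessel growth. Tumour cells secrete many of these factors toward the surrounding vessels, and VEGFA, ANGPTL4 and ADM are textbook targets of the hypoxia-inducible factors, which bind a short DNA core near the genes that they control.

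Of the 9 genes, 5 were higher in treated cells (VEGFA, ADM, ANGPTL4, VEGFB and EFNA1), 2 were lower (PGF and NRP2), and 2 did not pass the threshold (VEGFC and NRP1). Genes were tested in edgeR by quasi-likelihood, p-values were adjusted over all genes tested by the Benjamini-Hochberg method, and a gene was called at an adjusted p under 0.05. Treated and untreated cells differed in a large part of the transcriptome. Of all genes tested, 51.5% were called, 26.2% as higher and 25.4% as lower, so a call by itself sets a gene apart from few others. A log2 fold change of at least 1 with a call was rarer, at 5.02% of genes tested (2.43% higher and 2.59% lower), and was reached by VEGFA and PGF. The treated and untreated libraries did not overlap for any of the 9 genes, with 5 above and 4 below. Over all genes tested, 59.2% did not overlap, 29.8% with the treated libraries above and 29.4% with them below. The median log2 fold change was 0.16 over the 9 genes and 0.00 over all genes tested. In RNA from whole cultures, fewer cells that express a gene and less of its RNA per cell cannot be told apart.

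Values are estimated counts, and levels are given in CPM, in which each library's counts are brought to the same total, with TMM scaling between libraries. Before filtering and TMM scaling, a single count was worth 0.0440 to 0.0475 CPM in these libraries, which held 21045401 to 22740535 counts each. Within a group, the squared differences between libraries averaged 1.99 to 2.96 times what sampling of counts alone gives. Between groups, these squared differences averaged 40.5 to 42.5 times. The labelled cell type was checked with 5 epithelial markers (EPCAM, CDH1, KRT8, KRT18 and KRT19), all of which were present, with a summed level of 7321 to 7633 CPM in untreated and 4538 to 4570 CPM in treated libraries. Of these, EPCAM was called higher and the other 4 lower.

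The promoters of 7 of the 9 genes were matched in a RefSeq table (GRCh38.p14), in 8 windows of 250 bases before the start since PGF has more than 1 start. VEGFA and NRP1 were not matched. The windows were searched on both strands for the core of the hypoxia response element, ACGTG or GCGTG, and for TGATGNAA, an element bound by C/EBP-ATF pairs. The sequences below hold the core and come from genes that differ in their response. ADM and ANGPTL4 were higher in treated cells, and VEGFC was not called. Each runs 5′ to 3′ on the strand of its gene and ends at the base before the RefSeq start. The core (or its reverse complement) is in capitals. For ANGPTL4 this start lies inside the gene span given below, which begins at 8363289. They lie at chr11:10304878-10305072 (plus strand), chr19:8363905-8364154 (plus strand) and chr4:176792923-176793172 (minus strand).
ADM: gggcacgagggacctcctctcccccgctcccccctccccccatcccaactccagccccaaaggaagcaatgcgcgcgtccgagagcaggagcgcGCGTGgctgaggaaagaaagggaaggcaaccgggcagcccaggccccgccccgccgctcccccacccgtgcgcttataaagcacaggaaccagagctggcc
ANGPTL4: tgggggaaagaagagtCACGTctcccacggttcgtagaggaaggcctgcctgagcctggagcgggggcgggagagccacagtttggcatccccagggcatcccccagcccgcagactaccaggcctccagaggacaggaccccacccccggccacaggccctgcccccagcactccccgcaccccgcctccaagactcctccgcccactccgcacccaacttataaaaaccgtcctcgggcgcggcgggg
VEGFC: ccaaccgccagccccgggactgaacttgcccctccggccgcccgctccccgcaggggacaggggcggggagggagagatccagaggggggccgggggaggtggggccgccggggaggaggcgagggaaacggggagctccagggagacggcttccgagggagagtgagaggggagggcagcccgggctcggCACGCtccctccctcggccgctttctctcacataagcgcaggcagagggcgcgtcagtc

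The core starts 101 bases before the start of ADM, as GCGTG. In ANGPTL4 it is read on the opposite strand and begins 234 bases before the start. In VEGFC, also on the opposite strand, it begins 59 bases before. The core was also found in the windows of VEGFB and EFNA1 and in 1 of the PGF windows, and not in that of NRP2. It occurred in genes that were higher, lower and not called, and in 43.2% of all 35116 promoter windows of the same length. TGATGNAA was in none of the 8 windows and in 3.14% of all. These are matches of letters in a short window and do not show that a factor binds there.

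**Figure D1:**
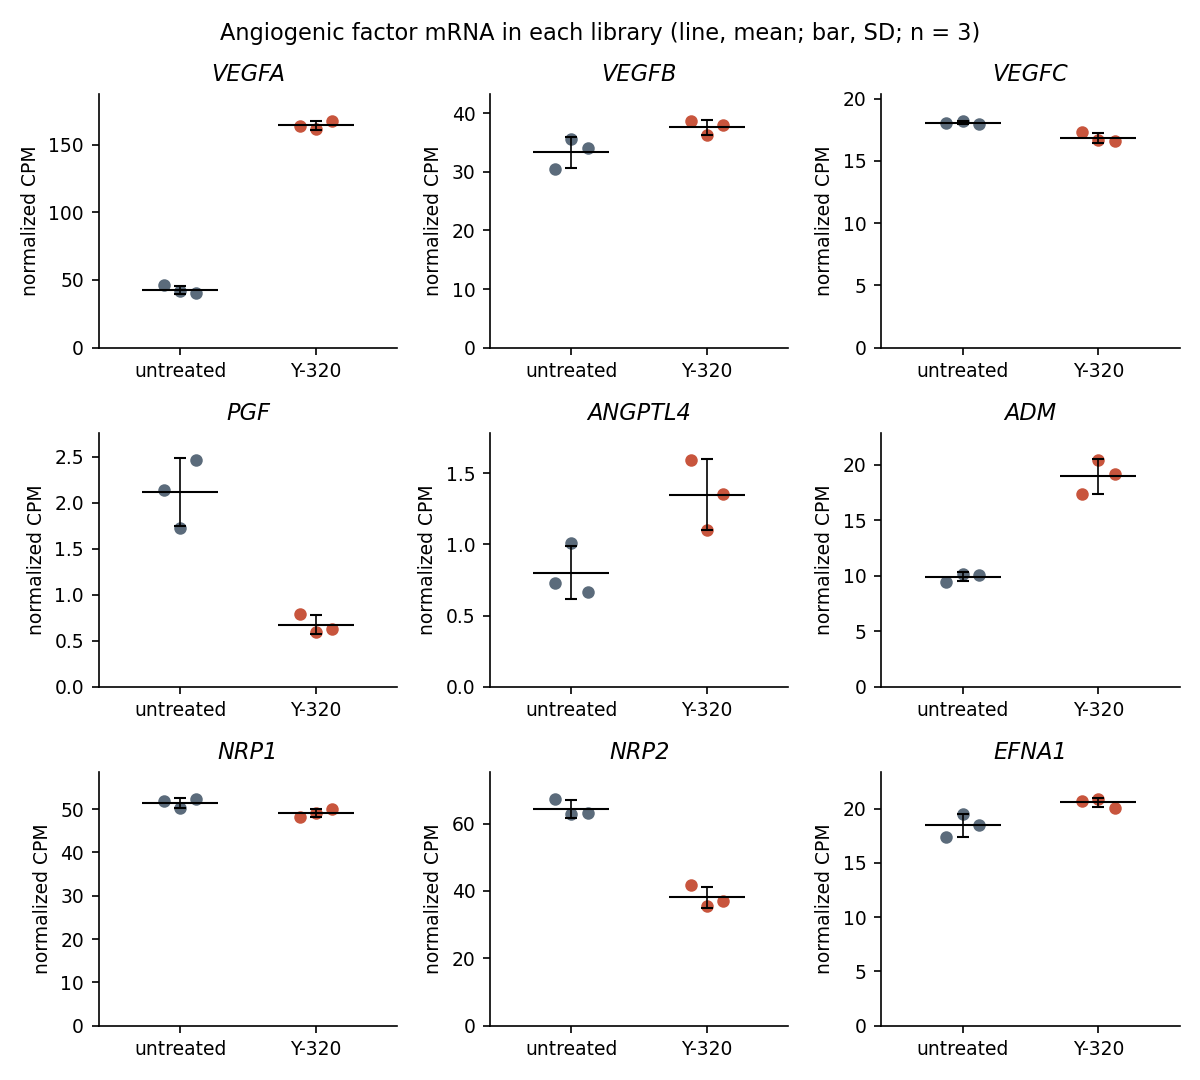
Normalized CPM of each of the 9 genes in the 3 untreated (grey) and 3 Y-320 (red) libraries, with a separate linear axis from 0 for each gene. Lines are means and bars SDs (n = 3). VEGFA rose from 42.6 to 164 CPM on average, PGF fell from 2.11 to 0.674 CPM, and the remaining genes lie between these changes.

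VEGFA encodes the principal growth factor of blood vessel endothelium and lies on chromosome 6 (43770184 to 43786487, plus strand, hg38). The untreated libraries held 1018, 868 and 886 counts of it, and those treated with Y-320 held 3735, 3525 and 3715. Every treated library held far more VEGFA than any untreated one, and the spread within each group was small beside the gap. The level rose from 42.6 ± 3.11 to 164 ± 3.21 CPM (SD, n = 3), which is 3.85-fold, with a log2 fold change of 1.94 (SE 0.044, 95% interval 1.85 to 2.04, edgeR adjusted p = 7.52e-10). By log2 fold change, VEGFA ranked 77 from the top among the genes tested. The log2 fold change stayed between 1.90 and 2.00 under the 15 other settings tried, which include leaving out each library.

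The gene with the pattern most like that of VEGFA was TNFAIP3, an inhibitor of NF-kB signalling. Likeness was measured as the smallest distance between log2(CPM + 1) profiles over the 6 libraries, each centred on its own mean, among 15072 tested genes that averaged 1 CPM or more. The distance was 0.121 for TNFAIP3, 0.159 for FOSL1, a subunit of the AP-1 transcription factor, and 0.169 for DNAAF8. TNFAIP3 rose with a log2 fold change of 2.07 (SE 0.049, edgeR adjusted p = 7.65e-10), and its treated libraries lay between 64.5 and 69.2 CPM. The 6 libraries form the pair of groups that the study compared, so likeness here means a similar size of change between them on this scale. Adding 1 to the CPM shrinks the change of a low gene on it. DNAAF8, at 0.836 to 1.44 CPM in untreated libraries, had a larger log2 fold change than VEGFA, at 2.67 (SE 0.17, edgeR adjusted p = 5.91e-07).

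VEGFB, whose product binds the FLT1 receptor, lies on chromosome 11 (64234584 to 64239264, plus strand). It had 671, 741 and 750 counts in untreated and 884, 791 and 841 counts in treated libraries. The groups did not overlap, but the lowest treated library (36.2 CPM) lay close to the highest untreated one (35.5 CPM). The mean level was 33.3 ± 2.63 CPM in untreated and 37.6 ± 1.28 CPM in treated cells (SD, n = 3), a log2 fold change of 0.18 (SE 0.057, 95% interval 0.05 to 0.30, edgeR adjusted p = 0.0247). This call was lost without untreated replicate 1 (edgeR adjusted p = 0.0810), without Y-320 replicate 1 (0.0739) and without Y-320 replicate 3 (0.0637), with upper-quartile scaling (0.0545) and in DESeq2 (DESeq2 adjusted p = 0.0667).

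VEGFC, the lymphatic growth factor, lies on chromosome 4 (176683538 to 176792922, minus strand). It had 398, 380 and 397 counts in untreated and 396, 365 and 367 counts in treated libraries. After scaling, the untreated libraries were nearly equal (18.1 ± 0.126 CPM, SD, n = 3) and the treated ones lay slightly below (16.9 ± 0.409 CPM, n = 3). The log2 fold change was -0.10 with a 95% interval of -0.21 to 0.01, and the gene did not pass the threshold (edgeR adjusted p = 0.156) or do so under any of the 15 other settings.

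PGF, the gene of placental growth factor, lies on chromosome 14 (74941834 to 74955626, minus strand). It was a low gene, with 47.3, 36.1 and 54.5 estimated counts in untreated and 18.1, 13.0 and 14.0 in treated libraries. The lowest untreated library was above the highest treated one. PGF fell from 2.11 ± 0.370 to 0.674 ± 0.105 CPM (SD, n = 3), which is 3.14-fold lower, with a log2 fold change of -1.65 (SE 0.24, 95% interval -2.19 to -1.11, edgeR adjusted p = 2.28e-04). It was called lower under all 15 other settings.

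**Figure D2:**
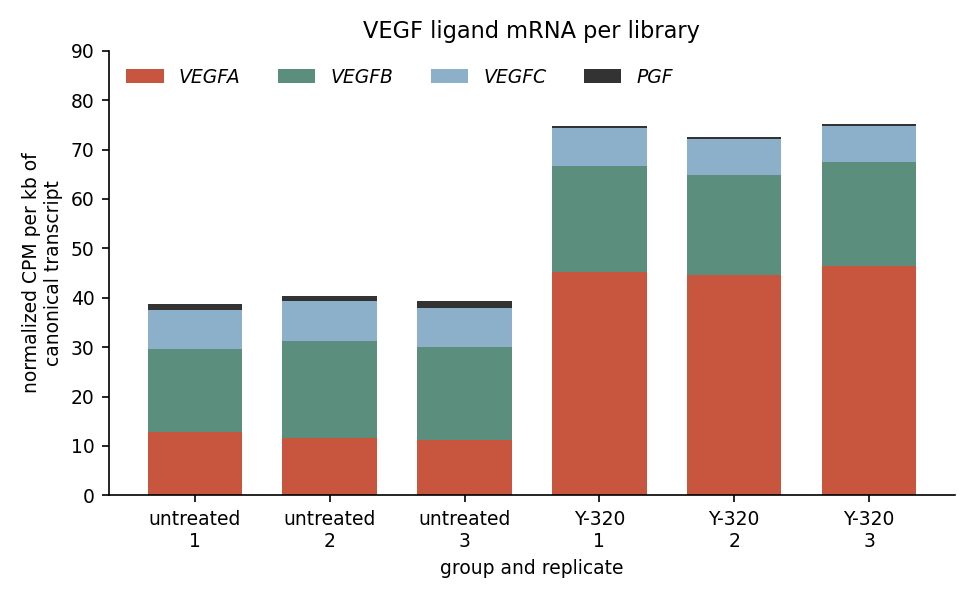
Stacked normalized CPM per kilobase of canonical transcript of the VEGF ligands in each library, on a linear axis from 0. The summed height rose from 39.5 to 74.2 on average, and the VEGFA segment from 11.8 to 45.5, while the VEGFC segment averaged 8.003 and 7.47 and the PGF segment is thin throughout.

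To compare the levels of the VEGF ligands with each other, CPM were divided by transcript length (CPM per kilobase of the canonical transcript). In untreated cells, VEGFB was the highest of the 4 VEGF ligands at 18.5 ± 1.46, followed by VEGFA at 11.8 ± 0.862, VEGFC at 8.003 ± 0.0556 and PGF at 1.22 ± 0.213 (SD, n = 3). In treated cells, VEGFA was the highest at 45.5 ± 0.890, above VEGFB at 20.8 ± 0.708. On this length scale, the leading VEGF ligand mRNA was VEGFB in every untreated library and VEGFA in every treated one. The switch depends on the length used. Per kilobase of all annotated exons, VEGFB led in the treated libraries too, at 19.1 ± 0.648 against 11.4 ± 0.223 for VEGFA (SD, n = 3).

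The share of VEGFA in the summed VEGF ligands was 32.9%, 28.6% and 28.3% in untreated libraries and 60.5%, 61.7% and 61.8% in treated ones. All treated libraries lay above all untreated ones, with means of 29.9% ± 2.58 and 61.3% ± 0.707 (SD, n = 3). The difference of 31.4 percentage points had an exact two-sided permutation p of 0.1, the smallest that 3 libraries against 3 can give. The share of VEGFB went from 46.7% to 28.1%, that of VEGFC from 20.3% to 10.1% and that of PGF from 3.08% to 0.522%. Dividing instead by the length of all annotated exons, which for VEGFA is 14431 bases against 3609 in the canonical transcript, gave a difference in the VEGFA share of 19.8 percentage points. The ratio of VEGFA to VEGFB counts, which needs no scaling, was 1.52, 1.17 and 1.18 in untreated and 4.23, 4.46 and 4.42 in treated libraries. Its log2 difference was 1.77 (exact two-sided permutation p = 0.1).

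The signalling receptors of these ligands were low in this epithelial line. KDR, the main VEGFA receptor, had 8.01, 2 and 5.06 estimated counts in untreated and 9.05, 9 and 12 in treated libraries, too few to be tested. FLT1, which binds VEGFA, VEGFB and PGF, had 10.8, 11.4 and 21.5 counts in untreated and 11.0, 19.9 and 20.8 counts in treated libraries. FLT1 overlapped between the groups (log2 fold change 0.20, 95% interval -0.63 to 1.04, edgeR adjusted p = 0.683). FLT4, the VEGFC receptor, had 87.0, 85.9 and 96.0 counts in untreated and 100, 95.5 and 90.5 counts in treated libraries. The log2 fold change of FLT4 was 0.05 (95% interval -0.20 to 0.30, edgeR adjusted p = 0.766). VEGFD, the remaining ligand of the list, had between 1 and 10 counts per library and was not tested.

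Of the neuropilins, NRP2 was called lower and NRP1 was not called. NRP1, on chromosome 10 (33177492 to 33336262, minus strand), had 1144, 1048 and 1157 counts in untreated and 1099, 1072 and 1107 counts in treated libraries. The treated libraries lay just below the untreated ones, at 49.0 ± 0.921 against 51.5 ± 1.13 CPM (SD, n = 3). The log2 fold change of NRP1 was -0.07 (95% interval -0.15 to 0.01, edgeR adjusted p = 0.116), which did not pass the threshold, though it did with upper-quartile scaling (edgeR adjusted p = 0.0329).

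NRP2, the neuropilin that also serves VEGFC in lymphatic vessels, lies on chromosome 2 (205681990 to 205798133, plus strand). It had 1488, 1309 and 1391 counts in untreated and 952, 777 and 819 counts in treated libraries. The groups were well apart. NRP2 fell from 64.4 ± 2.60 to 38.1 ± 3.18 CPM (SD, n = 3), with a log2 fold change of -0.76 (SE 0.057, 95% interval -0.88 to -0.63, edgeR adjusted p = 1.60e-06). The ratio of NRP1 to NRP2 counts was 0.769, 0.800 and 0.831 in untreated libraries and 1.15, 1.38 and 1.35 in treated ones. The ratio was higher in every treated library than in any untreated one, with a log2 difference of 0.69 (exact two-sided permutation p = 0.1).

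Semaphorins and plexins, which work with neuropilins, gave calls in both directions. Of the 12 listed besides NRP1 and NRP2, 11 were tested, of which 2 were higher and 6 lower, with a median log2 fold change of -0.31 against 0.00 over all genes tested. Among the class 3 semaphorins, SEMA3A fell by 0.97, SEMA3D by 0.91, SEMA3F by 0.42 and SEMA3C by 0.32 on the log2 scale (edgeR adjusted p of 0.0346 or less). SEMA3A, a repulsive cue for axons and endothelial cells, had the largest of these changes. The call of SEMA3D, a low gene, was kept by 1 of the 6 fits that leave out a library, the one without Y-320 replicate 2, and in these fits its adjusted p ran from 0.0165 to 0.105. SEMA3B, another ligand, rose by 0.39 (edgeR adjusted p = 7.77e-06), and the plexin PLXNA3 rose by 0.68 (edgeR adjusted p = 5.81e-08). The plexins PLXNA1 (log2 fold change -0.31, edgeR adjusted p = 5.11e-06) and PLXND1 (-0.34, edgeR adjusted p = 1.56e-04) were lower. The other listed plexins were not called.

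**Figure D3:**
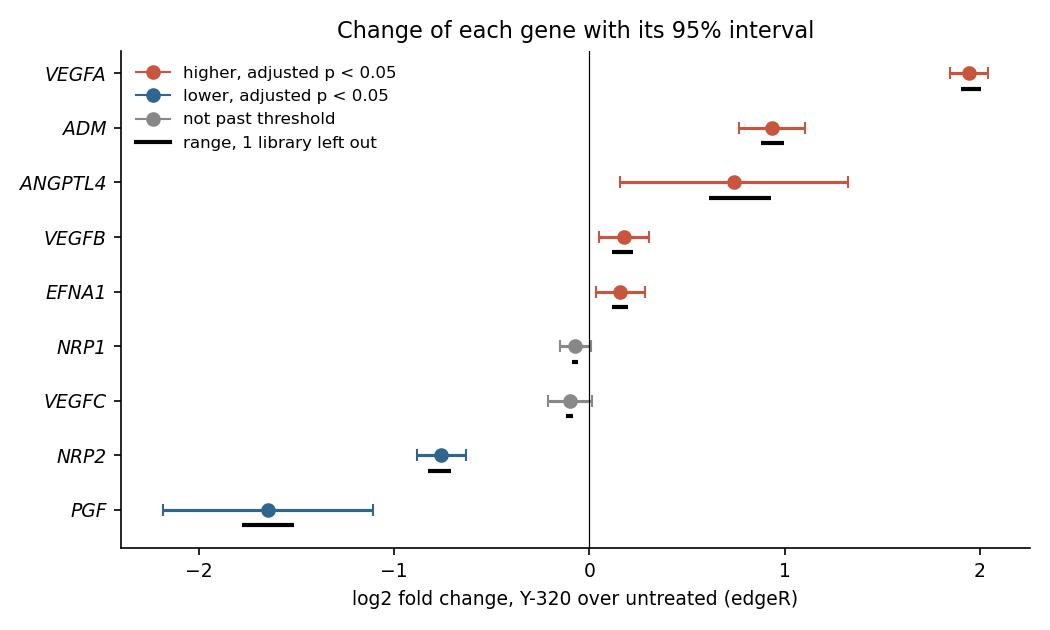
Log2 fold change of each of the 9 genes, Y-320 over untreated, with its 95% interval (coloured bar) and the range of the estimate when each library in turn is left out (black bar). The interval of VEGFA runs from 1.85 to 2.04 and that of PGF from -2.19 to -1.11, while those of VEGFC and NRP1 include 0 and those of VEGFB and EFNA1 end close to it.

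ADM, whose promoter sequence shows the hypoxia core as GCGTG, encodes adrenomedullin, a secreted peptide that widens vessels and supports vessel growth. It lies on chromosome 11 (10305073 to 10307397, plus strand). It had 209, 212 and 223 counts in untreated and 396, 447 and 424 counts in treated libraries. Every treated library was far above every untreated one. The level rose from 9.91 ± 0.386 to 19.0 ± 1.57 CPM (SD, n = 3), which is 1.91-fold, with a log2 fold change of 0.94 (SE 0.076, 95% interval 0.77 to 1.11, edgeR adjusted p = 3.06e-06).

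The other genes of the adrenomedullin system encode a second peptide, a processing enzyme, the receptor and its partners. ADM2, which encodes the related peptide intermedin, rose from 116, 96.9 and 119 to 532, 617 and 618 counts (log2 fold change 2.37, SE 0.098, edgeR adjusted p = 2.31e-08). PAM, the enzyme that amidates such peptides into their active form, rose by 0.51 on the log2 scale (edgeR adjusted p = 3.48e-06). CALCRL, the receptor, had between 3.03 and 10.5 counts per library and was not tested. Of its partners, which set the ligand that it prefers, RAMP2 fell from 51, 55 and 50 to 37, 38 and 38 counts (log2 fold change -0.51, edgeR adjusted p = 0.0275). The call of RAMP2 was kept by 1 of the 6 fits that leave out a library, the one without untreated replicate 3, and in these fits its adjusted p ran from 0.0461 to 0.0981. RAMP1 had a log2 fold change of -0.16 and did not pass the threshold (edgeR adjusted p = 0.113), and RAMP3 had at most 2 counts in any library. Of the 7 genes listed besides ADM, 5 were tested, 2 were higher and 1 was lower. The 2 that were higher are the peptide and the enzyme just named.

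ANGPTL4, the other called gene whose promoter sequence is shown, encodes an angiopoietin-like protein that inhibits lipoprotein lipase and acts on vessels. It lies on chromosome 19 (8363289 to 8374370, plus strand). It was a low gene, with 16.1, 21.1 and 14.7 estimated counts in untreated libraries, against 36.4, 24.0 and 30.0 in treated libraries. The groups did not overlap, although the lowest treated library (1.10 CPM) was close to the highest untreated one (1.01 CPM). The level was 0.802 ± 0.185 CPM in untreated and 1.35 ± 0.248 CPM in treated cells (SD, n = 3), a log2 fold change of 0.74 (SE 0.26, 95% interval 0.16 to 1.32, edgeR adjusted p = 0.0359). The call was lost without untreated replicate 1 (edgeR adjusted p = 0.109), untreated replicate 3 (0.118), Y-320 replicate 1 (0.138) or Y-320 replicate 3 (0.0874), in the fit with a replicate block (0.0650) and in DESeq2 (DESeq2 adjusted p = 0.163).

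Of the 12 other angiopoietins, angiopoietin-like genes and their receptors, 5 reached enough counts to be tested. ANGPTL6 was higher (log2 fold change 0.83, edgeR adjusted p = 0.0281). ANGPTL2 (-1.29, edgeR adjusted p = 0.00336) and ANGPT1, the activating ligand of the TEK receptor (-0.89, edgeR adjusted p = 0.0208), were lower. All 3 were low, at 0.551, 0.923 and 1.06 CPM on average in untreated cells. Of the 6 fits that leave out a library, 2 kept the call of ANGPTL6 (it was lost without untreated replicates 2 or 3 or Y-320 replicates 1 or 2, adjusted p up to 0.114) and 3 kept that of ANGPT1 (lost without untreated replicate 3 or Y-320 replicates 1 or 3, up to 0.0906), while ANGPTL2 was called in all 6.

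EFNA1 encodes ephrin-A1, a membrane-anchored ligand of Eph receptors with a role in vessel remodelling, and lies on chromosome 1 (155127876 to 155134899, plus strand). It had 384, 407 and 408 counts in untreated and 474, 457 and 445 counts in treated libraries. The lowest treated library (20.1 CPM) was just above the highest untreated one (19.5 CPM). The level was 18.5 ± 1.06 CPM in untreated and 20.6 ± 0.441 CPM in treated cells (SD, n = 3), a log2 fold change of 0.16 (SE 0.056, 95% interval 0.03 to 0.28, edgeR adjusted p = 0.0387). The call was held by 1 of the 6 fits that leave out a library, the one without untreated replicate 2 (edgeR adjusted p = 0.0242), and the adjusted p of the other 5 ran from 0.0519 to 0.137. It was also lost without a filter (0.0561), with upper-quartile scaling (0.0856) and in DESeq2 (DESeq2 adjusted p = 0.220).

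Eph receptors and the other ephrins, which pass signals between touching cells, were lower in larger part. Of the 21 listed besides EFNA1, 18 were tested, 3 were higher and 13 were lower, with a median log2 fold change of -0.35. EPHA2, the main receptor of EFNA1 in epithelial cells, fell from 5620, 4773 and 5248 to 3372, 3046 and 3063 counts (log2 fold change -0.76, SE 0.042, edgeR adjusted p = 1.63e-07). The ligand EFNA1 and its receptor EPHA2 thus had log2 fold changes of opposite sign. The largest falls were those of EPHA7 (log2 fold change -3.40, SE 0.34, edgeR adjusted p = 1.48e-05), EPHA5 (-2.23, SE 0.49, edgeR adjusted p = 0.00315) and EPHA4 (-1.10, edgeR adjusted p = 8.43e-08). EPHA10 rose (0.90, SE 0.21, edgeR adjusted p = 0.00508). EPHA7, EPHA5 and EPHA10 were low genes, which limits their precision. EPHA7 had 49, 46 and 42 counts in untreated and 4, 7 and 2 in treated libraries. EPHA5 had 22, 16 and 32 and then 8, 6 and 1, and EPHA10 had 18.4 to 42.1 counts per library.

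By CPM per kilobase, the order of the 9 genes in untreated cells was VEGFB, EFNA1, VEGFA, NRP2, NRP1, VEGFC, ADM, PGF and ANGPTL4. EFNA1 (11.9 ± 0.684) and VEGFA (11.8 ± 0.862) overlapped there, and the libraries of every other pair of neighbours in that order did not. In treated cells the order was VEGFA, VEGFB, EFNA1, ADM, NRP1, VEGFC, NRP2, ANGPTL4 and PGF. EFNA1 (13.3 ± 0.284) and ADM (12.7 ± 1.05) were the neighbours that overlapped. ADM moved from place 7 to place 4, and NRP2 from place 4 to place 7. With the length of all annotated exons in place of the canonical transcript, VEGFA took place 7 in untreated and place 2 in treated cells.

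Beyond the families above, lists of other angiogenic factors and of angiogenesis inhibitors held changes in both directions. Of 18 other angiogenic factors, 16 were tested, 6 were higher and 9 lower, with a median log2 fold change of -0.38, which is the same with FGF1 set at its bound. HBEGF, a ligand of the EGF receptor, rose (log2 fold change 1.97, SE 0.12, edgeR adjusted p = 4.09e-07). CCN2, a matrix-associated growth factor that binds VEGFA, fell (log2 fold change -2.83, SE 0.067, edgeR adjusted p = 7.65e-10), as did PTN, the growth factor pleiotrophin (-1.87, edgeR adjusted p = 2.46e-05). FGF1, a fibroblast growth factor, had 14, 15 and 11 counts in untreated and 1, 0 and 1 counts in treated libraries and was at least 4.58-fold lower, taking 3 counts in each treated library as the limit.

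Of 12 angiogenesis inhibitors, all tested, 3 were higher and 7 lower, with a median log2 fold change of -0.48. The lower ones include SEMA3F, which was also counted among the neuropilin partners. THBS1 and THBS2 encode thrombospondins, matrix proteins that inhibit endothelial growth. THBS1 fell by 1.503 and THBS2 by 1.34 on the log2 scale (edgeR adjusted p = 1.44e-08 and 2.16e-04), and VASH2 fell by 0.78 (edgeR adjusted p = 0.0223). VASH2 does not do what the list's name says, since vasohibin-2 is known to promote vessel growth. The inhibitory vasohibin VASH1, named after its value was seen, rose by 0.39 (edgeR adjusted p = 0.00657). The VASH2 call was kept by 2 of the 6 fits that leave out a library, those without untreated replicate 2 or Y-320 replicate 1, and its adjusted p in these fits reached 0.0841. SPRY4, which dampens receptor tyrosine kinase signalling, rose by 0.84 (edgeR adjusted p = 0.00120).

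**Figure D4:**
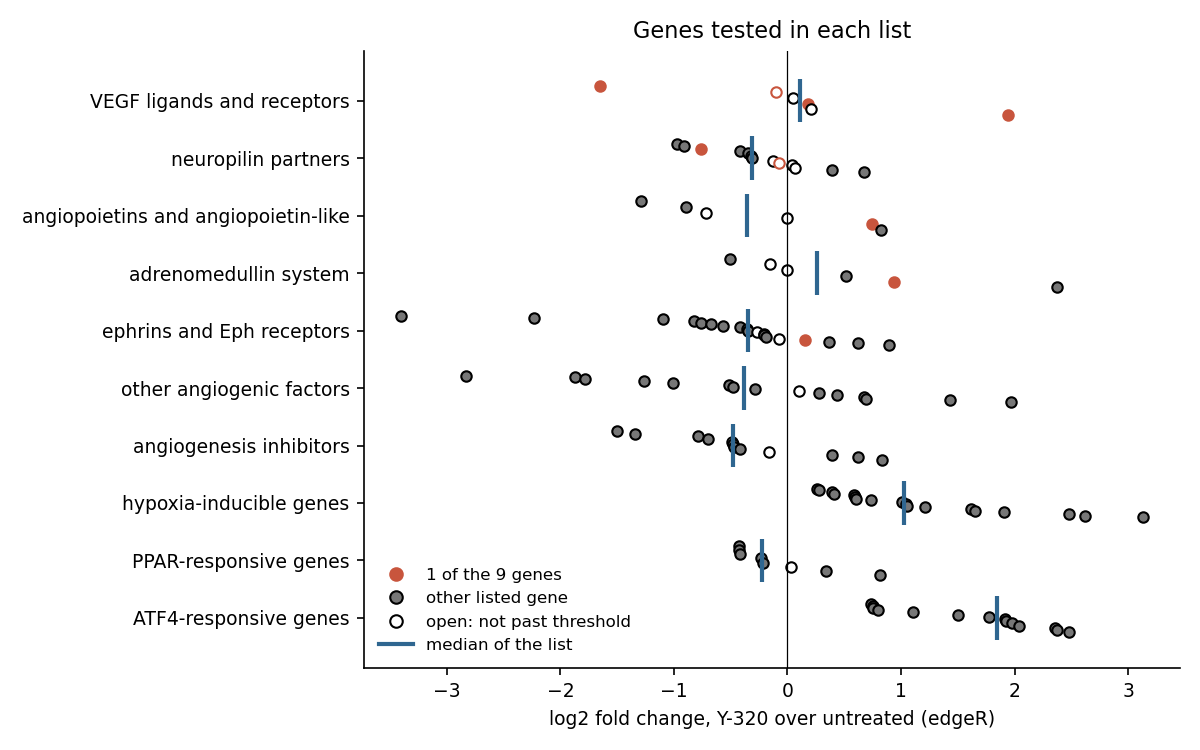
Log2 fold change of every tested gene of 10 lists, Y-320 over untreated, on a linear axis of log2 units. Red points are the 9 genes described here, grey points the other listed genes, open points those not past the threshold, and blue bars the list medians. All 18 hypoxia-inducible genes lie above 0. The medians of the neuropilin (-0.31), angiopoietin (-0.36), ephrin (-0.35), other angiogenic factor (-0.38), inhibitor (-0.48) and PPAR (-0.23) lists lie below 0. FGF1, at 3 counts or fewer in every treated library, is left out.

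Because VEGFA, ADM and ANGPTL4 are textbook targets of several regulators, lists of other targets of the same regulators were read from the same fit. All 18 hypoxia-inducible genes that do not belong to the 9 genes were higher, with a median log2 fold change of 1.03, led by CA9 (3.13), NDRG1 (2.62), VLDLR (2.48) and BNIP3 (1.91). The log2 fold changes of VEGFA (1.94), ADM (0.94) and ANGPTL4 (0.74) lay within the range of that list. The range was wide, from 0.26 for SLC2A1 to 3.13 for CA9. The rest of the 9 genes lay below that range, from -1.65 for PGF to 0.18 for VEGFB. All 14 tested of 15 genes responsive to ATF4, a transcription factor of the amino acid and unfolded protein responses that also acts on VEGFA, were higher too, with a median of 1.85. VLDLR is in both of these lists, and ADM2 in the second. Of 11 genes responsive to the PPAR factors, which control ANGPTL4 in fat and liver, 8 were tested, 2 were higher and 5 lower, with a median of -0.23. PLIN2, a lipid droplet protein, rose (0.82), and ACAA2 (-0.43), CPT1A (-0.43) and PDK4 (-0.42), which serve fatty acid use, fell. Whether any of these regulators had a part in the changes of the 9 genes was not tested.

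Markers of other cell types were read beside these results. Of 6 endothelial markers, 3 were tested, PECAM1 being higher (log2 fold change 1.22) and CDH5 lower (-1.29), and the summed level was 18.1 to 19.6 CPM in untreated and 15.3 to 18.8 CPM in treated libraries, with ERG at 0 in all 6. The 5 fibroblast markers summed to 109 to 130 CPM and then 49.4 to 62.2 CPM, with 3 lower and 0 higher (5 lower without Y-320 replicate 2). The 5 leukocyte markers summed to 36.6 to 38.3 CPM and then 67.2 to 73.3 CPM, nearly all of it CD68, a lysosomal protein found in many cell types, while CD3E was at 2 counts or fewer in every library. Their part in the changes of the 9 genes was not tested.

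Some limits follow from how reads were assigned. The share of 31-base words that a gene's transcripts have in common with another gene was 0 for VEGFB, VEGFC, ADM and EFNA1, and 1.07% for VEGFA, 2.13% for ANGPTL4, 2.25% for NRP2, 3.71% for PGF and 5.42% for NRP1. VEGFA, NRP1 and NRP2 overlap a noncoding gene on the other strand over 1.30%, 4.87% and 1.06% of their exon bases, and whether the counting used strand is not given in the sources used here.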

How the data were processed

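Total RNA of HDQ-P1 cells was sequenced by the study as 3 untreated and 3 Y-320 libraries. The deposited values are estimated counts per gene, not normalized, listed by Ensembl identifier. The submitters' processing notes name kallisto 0.46.1 and the GRCh38 (hg38) build. The Ensembl release and strand setting are not given in the sources used here. The paper's methods combine several pipelines that its text does not name, and these were not repeated.

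Of 40295 identifiers, 35390 were matched to a symbol. The counts were rounded and fitted with edgeR 4.0.16 in R 4.3.3 (filterByExpr with a minimum of 10 counts and 15 in total, TMM scaling, glmQLFit and glmQLFTest without a block), with Benjamini-Hochberg adjustment over 16580 genes and a threshold of 0.05. Normalized CPM came from the same fit. DESeq2 1.42.0 and limma-voom (limma 3.58.1), other scalings and filters, a replicate block, unrounded counts and leaving out each library were alternatives. Lengths and positions came from GENCODE 44 on hg38. Where no library of a group exceeded 3 counts of a gene, its change was given as a bound, which covers counting error only. Exact permutation tests, tables and plots used Python 3.11.15, scipy 1.17.1, pandas 2.3.3, numpy 2.4.6 and matplotlib 3.10.9.

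Groups came from the labels. The 9 genes and the gene lists, written from general knowledge, were chosen with earlier results of these data known. The text names each of the 9 genes and many of their receptors or ligands in the lists. Not every listed Eph receptor, semaphorin and plexin is named. From each list it also names at most 4 other called genes, those with the largest absolute log2 fold change. The 3 genes with the pattern nearest to VEGFA are named too. Outside this rule, SLC2A1 is named as the low end of a range and VASH1 beside VASH2. Other genes named in counts of markers are the fixed markers. The value of 1 leukocyte marker is not reported here, though the summed level of its list includes it.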

Additional observations from a re-analysis of the deposited data

How the results depend on the processing

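The calls of VEGFA, ADM, PGF and NRP2 held under all 15 alternatives, and no log2 fold change of the 9 genes changed sign. VEGFB passed the threshold in 10 of the 15, ANGPTL4 in 9, EFNA1 in 7, NRP1 in 1 (upper-quartile scaling, log2 fold change -0.10, edgeR adjusted p = 0.0329) and VEGFC in 0. The 9 genes gave 5 higher calls, against 3 with upper-quartile scaling, 2 with DESeq2 and 2 to 5 when each library was left out. The lower calls were 2, and 3 with upper-quartile scaling. In the list of VEGF ligands and receptors, 2 genes were higher, against 1 with upper-quartile scaling or DESeq2 and 1 to 2 with a library left out. In the angiopoietin list, 2 were higher (0 with DESeq2, 1 with the replicate block, 0 to 1 with a library left out) and 2 lower (1 with the stricter filter or DESeq2, 1 to 2 with a library left out). The single lower call of the adrenomedullin list became 0 without a filter or with DESeq2, and 0 to 1 with a library left out. Of the PPAR-responsive genes, 2 were higher, against 1 with DESeq2 and 1 to 2 with a library left out. The counts of the other 6 pathway lists stayed within 1.5 times. In the fibroblast markers, COL3A1 and DCN were not called but passed the threshold without Y-320 replicate 2 (edgeR adjusted p = 0.00848 and 0.0334). The median of all genes tested moved by less than 0.03 on the log2 scale under every scaling.

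The replicate numbers are shared between groups. The correlations of deviations between same-numbered libraries were -0.0024, 0.015 and 0.0022 over 16580 genes, which gives no sign of pairing. They weigh every gene alike, so counting noise in low genes could hide a pairing, and they cannot exclude one. With the replicate block, 4 of the 9 genes were higher and 2 lower. At 0.802 CPM, ANGPTL4 rests on 14.7 to 36.4 counts per library, which limits its precision, as does the level of PGF.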
